A study of Mus musculus with 6 samples.

Results

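Cholesterol and fatty acids are built in the cytosol and endoplasmic reticulum from acetyl-CoA, and the enzymes of both routes are classic targets of the SREBP transcription factors. The SREBPs are made as membrane-bound precursors. The escort protein SCAP carries them out of the endoplasmic reticulum when sterols are scarce, while INSIG proteins hold SCAP back when sterols are plentiful. SREBP2 acts mainly on sterol genes and SREBP1 mainly on fatty acid genes, and some of the regulators are targets of the SREBPs themselves.

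The genes followed here were 32 symbols chosen by name, all of which are among the 25899 symbols of the count table. They fall into 6 SREBP regulators (the last of them a sterol carrier), 18 mevalonate and sterol enzymes and 8 fatty acid enzymes. A filter on low counts kept 31 of them, as it kept 13869 genes of the table. The exception, Mvd (mevalonate diphosphate decarboxylase), had no count in any library. Its whole span on chromosome 8 (122433601 to 122443422, GRCm38) lies inside Gm20388 on the opposite strand, and strand use in counting is not given, so the value of 0 cannot be read as a level.

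Newly made RNA was measured in 6 libraries from 3 clones, named a, b and c, of the mouse embryonic stem cell line E14tg2a (129SV background). Each clone gave 1 library after 2 h of 250 nM 4-hydroxytamoxifen (4OHT) and 1 untreated library. All cells stably carry a cRAF-ErT2 cassette, a RAF kinase fused to a receptor domain that 4OHT engages, so that the drug switches on ERK signalling. All had grown in serum with LIF and 2 µM Chir99021 and then, for 24 h before treatment, in serum with LIF and the FGF receptor inhibitor PD173074 at 250 nM. All received 5 mM ethynyl uridine for the 15 min before RNA was isolated, and the RNA labelled in that window was captured and sequenced. The question is which genes are transcribed more or less soon after ERK is switched on. No cells without the cassette were given 4OHT and no solvent control is labelled, so effects of ERK and of 4OHT itself cannot be told apart. 4OHT is an oestrogen receptor ligand, and as background, drugs of the tamoxifen class are also known to bind the sterol isomerase encoded by Ebp.

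Total counts were 7295334 to 9431819 in the 4OHT libraries and 9745747 to 12168380 in the untreated ones. The 32 genes took 0.239% to 0.259% of all counts after 4OHT and 0.240% to 0.250% untreated. A count of 3, the limit that a count of 0 allows, stood for 0.343 to 0.438 CPM with 4OHT and 0.228 to 0.294 CPM without. The ERK-induced genes Egr1, Spry4 and Dusp6 were higher with 4OHT by 5.86 ± 0.18, 5.16 ± 0.15 and 2.14 ± 0.09 on the log2 scale. Of 8 embryonic stem cell markers all had counts in every library, with a summed level of 1914 to 2312 CPM with 4OHT and 2453 to 2554 CPM untreated. That sum covers markers that moved both ways, 2 called higher and 3 lower, among them Nanog (-1.66 ± 0.12) and Pou5f1 (0.36 ± 0.06), while Sox2 was not called (-0.04 ± 0.07). Of 8 fibroblast markers, summed at 20.7 to 24.8 CPM with 4OHT and 2.88 to 3.72 CPM untreated, Lum had no count in any library, Dcn and Col3a1 had none with 4OHT, and Twist1 made up most of the 4OHT sum (18.1 CPM on average). Of 8 primitive endoderm markers, none lacked counts in all libraries, and their sum was 57.4 to 61.2 CPM with 4OHT and 134 to 165 CPM untreated. These sums moved with treatment like the results below, and their part in those results was not tested. In bulk RNA, a smaller share of cells of a type and less RNA per cell cannot be told apart.

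Levels below are CPM (the usual counts per library total, scaled by TMM), errors are SD for levels and SE for log2 fold changes, and n = 3 libraries per group. Fold changes are 4OHT over untreated, and a gene is called when its adjusted p in edgeR's quasi-likelihood test is below 0.05.

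After 2 h of 4OHT most sterol enzymes were higher, while fatty acid enzymes went both ways. Of the 31 tested genes, 17 rose with 4OHT, where 28.5% of all tested genes did, and 5 fell, where 28.6% of all tested genes did. The mevalonate and sterol enzymes had 11 of 17 higher and 1 lower (median log2 fold change 0.35). The fatty acid enzymes had 3 of 8 higher and 4 lower (median -0.32), and the SREBP regulators had 3 of 6 higher and none lower (median 0.16). The median over all tested genes was 0.00. In either direction 22 of 31 were called, against 57.1% of all genes, and 20 of 31 had groups that did not overlap in CPM, close to the 63.3% of all genes. All 22 called genes moved the same way in each of the 3 clones. The calls came from these same libraries, so that agreement is no separate support, and its share over all called genes is not given. The changes were moderate: among all tested genes, Hmgcs1, with the largest change of the 31, had a larger absolute fold change than 89.6% of genes, and Fads1, with the largest fall, than 76.9%.

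The size of these counts depends on scaling. Scaling by library size alone moved the median of all tested genes by -0.20 and gave 8 members higher and 11 lower, with medians of 0.15 for sterol enzymes, -0.52 for fatty acid enzymes and -0.03, with the sign turned, for the regulators. The share of all tested genes called by library size is not given here. Counts by library size, here and below, therefore have no background to be set against. The 8 still higher were Srebf2, Insig1, Hmgcs1, Idi1, Cyp51, Msmo1, Sc5d and Acly, and all 5 genes that fell with TMM scaling were also lower by library size. With clone as a block, 17 were higher and 8 lower, where 67.4% of all genes were called, the added falls being Fasn, Tm7sf2 and Ebp.

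**Figure D1:**
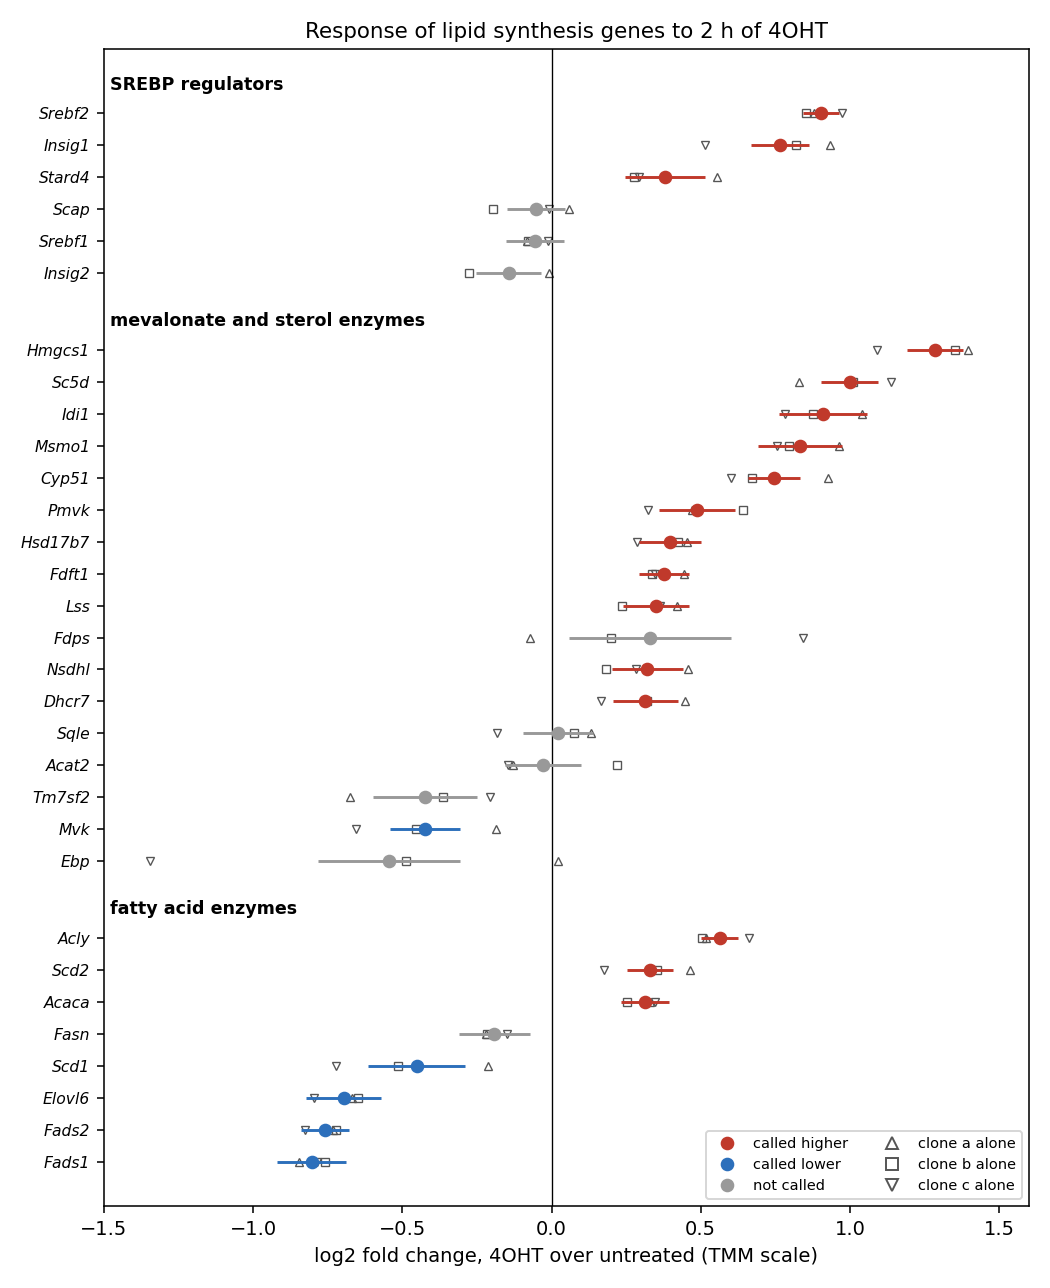
Log2 fold change (4OHT over untreated, x axis) of the 31 tested genes by arm, with SE bars for the filled points over 3 clones and open symbols for each clone alone. Most sterol enzymes sit right of 0 up to 1.29 for Hmgcs1, while Fads1, Fads2, Elovl6 and Scd1 sit left of 0 down to -0.80. By library size alone every point would lie about 0.20 further left. Srebf1, Scap, Insig2, Fasn, Tm7sf2 and Ebp were then also called lower.

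Promoters are shown for members that moved most, so that the letters before their starts can be read beside their values. The CCAAT box is the motif of the factor NF-Y, which is known to act beside SREBPs. The 5 sequences, chosen by fold change, are the 250 bases before the start of transcription in RefSeq (GRCm38.p6), 5′ to 3′ on the gene's strand, for the 2 sterol enzymes and the regulator with the largest rises and for the 2 genes with the largest falls among those with an entry. Capitals mark CCAAT or its reverse complement ATTGG, and in Hmgcs1 also a match to the sterol regulatory element core TCACNCCAC. They come from chr13:119690101-119690350 (plus strand) for Hmgcs1, chr9:42264301-42264550 (minus strand) for Sc5d, chr15:82147019-82147268 (plus strand) for Srebf2, chr19:10101504-10101753 (minus strand) for Fads2 and chr3:129532136-129532385 (plus strand) for Elovl6.
Hmgcs1: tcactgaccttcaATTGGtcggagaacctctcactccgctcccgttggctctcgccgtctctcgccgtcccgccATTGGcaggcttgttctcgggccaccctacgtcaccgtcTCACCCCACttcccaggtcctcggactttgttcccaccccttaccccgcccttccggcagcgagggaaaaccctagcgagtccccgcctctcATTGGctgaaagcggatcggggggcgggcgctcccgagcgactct
Sc5d: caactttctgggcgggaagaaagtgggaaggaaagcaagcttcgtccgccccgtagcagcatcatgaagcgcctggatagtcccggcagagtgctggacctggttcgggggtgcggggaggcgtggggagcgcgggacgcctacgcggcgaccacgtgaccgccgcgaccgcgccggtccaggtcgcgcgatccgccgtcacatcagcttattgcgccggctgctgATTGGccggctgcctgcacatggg
Srebf2: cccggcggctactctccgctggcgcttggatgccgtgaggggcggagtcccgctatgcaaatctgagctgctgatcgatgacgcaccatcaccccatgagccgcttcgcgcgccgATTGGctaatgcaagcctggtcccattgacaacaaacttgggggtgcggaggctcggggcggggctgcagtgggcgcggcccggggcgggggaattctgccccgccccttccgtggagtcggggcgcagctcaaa
Fads2: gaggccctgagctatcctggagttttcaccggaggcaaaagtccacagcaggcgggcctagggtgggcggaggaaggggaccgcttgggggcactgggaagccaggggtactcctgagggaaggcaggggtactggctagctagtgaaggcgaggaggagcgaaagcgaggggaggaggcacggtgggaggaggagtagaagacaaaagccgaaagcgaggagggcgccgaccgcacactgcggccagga
Elovl6: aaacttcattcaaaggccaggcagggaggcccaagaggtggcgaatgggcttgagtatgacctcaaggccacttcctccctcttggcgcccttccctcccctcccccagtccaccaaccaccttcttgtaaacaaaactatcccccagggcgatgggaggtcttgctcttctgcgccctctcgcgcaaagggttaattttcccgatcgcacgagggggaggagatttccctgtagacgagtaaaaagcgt
The Hmgcs1 stretch holds 3 CCAAT boxes and the sterol element, Sc5d and Srebf2 hold 1 CCAAT box each, and Fads2 and Elovl6 hold none of either. These 5 do not stand for all members, since Mvk, which also fell, holds CCAAT. Starts differ between annotations: in GENCODE, used for gene positions here, Fads2 starts at 10101746, Srebf2 at 82147181 and Elovl6 at 129532355. Nearly all of the Fads2 stretch and parts of the Srebf2 and Elovl6 stretches therefore lie inside the GENCODE genes. The lack of CCAAT in the Fads2 stretch thus does not describe the bases before its GENCODE start.

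Of the 32 genes 25 matched a promoter entry, and 1 window of 300 bases per gene (250 before to 50 after the start farthest upstream) was searched on both strands. CCAAT was present in 13 of 15 mevalonate and sterol enzymes (86.7%), 4 of 5 regulators and 2 of 5 fatty acid enzymes, against 38.6% of the 10619 tested genes with a window. By response, CCAAT was in 12 of 14 members that rose, 1 of 3 that fell and 5 of 7 that were tested and not called. The 1 fall with CCAAT was Mvk, which held 5 such boxes. TCACNCCAC was in Hmgcs1 alone among the members and in 1.1% of tested genes. The GC box GGGCGG was in 14 of 15 sterol enzymes (63.8% of tested genes), the E-box CACGTG in 4 of 25 members (10.1%) and the ETS core CCGGAA in 3 of 25 (26.9%). These are matches of letters, with no overlap between the CCAAT and TCACNCCAC patterns, and say nothing about binding. For some members, Fads2 among them, the window lies largely inside the GENCODE gene, so the shares hold for RefSeq starts only.

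Among the regulators, the gene for SREBP2 rose and the gene for SREBP1 did not pass the test. Srebf2 (chromosome 15, 82147181 to 82205379) had 304, 289 and 301 CPM with 4OHT in clones a, b and c, against 165, 159.9 and 153 CPM untreated. The groups were far apart, with a log2 fold change of 0.90 ± 0.06 (adjusted p = 1.2e-06), and Gm49502 overlaps 2110 bases of the span on the same strand. Srebf1 (chromosome 11, 60199089 to 60222581) had 206, 219 and 259.5 CPM with 4OHT and 218, 231 and 262 CPM untreated (-0.05 ± 0.10, adjusted p = 0.65), and was called lower by library size alone (-0.25, adjusted p = 0.043). The order of the clones was the same in both Srebf1 groups, c being highest, and the gene overlaps Rai1 on the other strand by 109 bases. The ratio of Srebf2 to Srebf1 counts, which no scaling can change, was 1.48, 1.32 and 1.16 with 4OHT and 0.758, 0.692 and 0.587 untreated in clones a, b and c.

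Of the INSIG genes, Insig1 rose and Insig2 did not pass the test. Insig1, which encodes the SCAP anchor that is itself an SREBP target, had 138, 115 and 108 CPM with 4OHT against 72.2, 65.3 and 75.4 CPM untreated (0.77 ± 0.10, adjusted p = 9.0e-05). The rise was smallest in clone c, at 0.51 against 0.93 in a and 0.82 in b. Insig2, which encodes the second anchor, had 17.4, 16.0 and 15.3 CPM with 4OHT and 17.5, 19.4 and 16.95 CPM untreated (-0.14 ± 0.11, adjusted p = 0.29). The groups of Insig2 overlapped, and it was called lower by library size alone (-0.34, adjusted p = 0.022). Insig1 gave 7.02 to 7.95 counts per Insig2 count with 4OHT and 3.37 to 4.45 untreated. Scap, the escort protein, also had overlapping groups, 33.4 to 38.6 CPM with 4OHT and 32.7 to 38.8 CPM untreated (-0.05 ± 0.10), and was called lower by library size alone (-0.25, adjusted p = 0.047). Stard4, a soluble sterol carrier and SREBP2 target, rose by less, with 44.4, 34.5 and 46.3 CPM with 4OHT against 30.2, 28.5 and 37.7 CPM untreated (0.38 ± 0.13, adjusted p = 0.033). Its groups overlapped, and the call was lost when untreated a, untreated b, 4OHT a or 4OHT c was left out (adjusted p up to 0.12), by library size (0.18, adjusted p = 0.25) and by upper quartile scaling (0.28, adjusted p = 0.11).

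**Figure D2:**
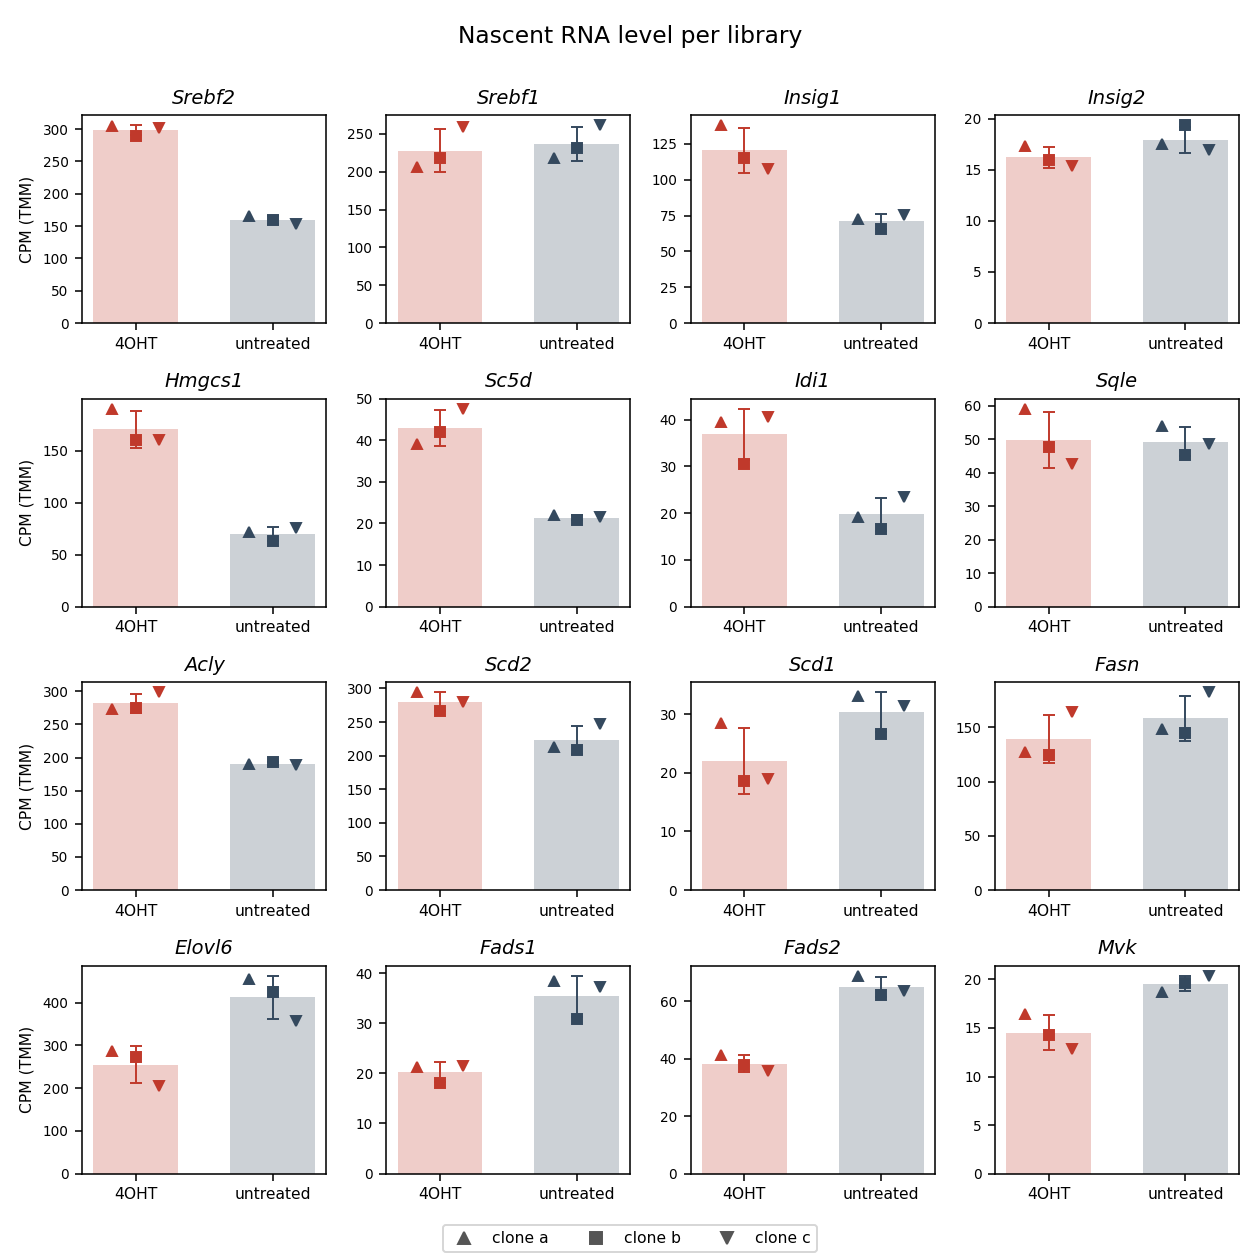
Nascent RNA level (CPM, y axis, from 0) of 16 members in the 4OHT (left) and untreated (right) libraries, with bars for the mean, error bars for the SD and a symbol for each of clones a, b and c. Srebf2, Insig1, Hmgcs1, Sc5d, Idi1, Acly and Scd2 are higher with 4OHT in every clone, Elovl6, Fads1, Fads2 and Mvk are lower in every clone, and Srebf1 and Sqle overlap. Under library size scaling these directions held, although Scd2 was no longer called (0.13).

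In the mevalonate segment, which turns acetyl-CoA into the building blocks of sterols and isoprenoids, the members did not move together. Hmgcs1 (chromosome 13, 119690379 to 119708260), the cytosolic HMG-CoA synthase, had 190.3, 160.1 and 160.5 CPM with 4OHT against 72.1, 62.6 and 75.2 CPM untreated. Every 4OHT library was above every untreated one, and its rise of 1.29 ± 0.09 was the largest of the 31 tested genes (adjusted p = 1.9e-06). Gm48342, an antisense gene, overlaps 6190 bases of its span, and reads from the 2 cannot be told apart without strand. Idi1, the isomerase that interconverts the C5 building blocks, followed with 39.4, 30.6 and 40.6 CPM with 4OHT against 19.1, 16.5 and 23.5 CPM untreated (0.91 ± 0.15), again with no overlap between groups. Pmvk, phosphomevalonate kinase, rose by 0.49 ± 0.13 (17.2 ± 1.27 CPM with 4OHT, 12.3 ± 1.48 CPM untreated), a call lost by library size (0.29, adjusted p = 0.073) and without both libraries of clone b (adjusted p = 0.081).

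Mvk, mevalonate kinase, was the only sterol enzyme called lower with TMM scaling. It had 16.4, 14.2 and 12.9 CPM with 4OHT against 18.8, 19.6 and 20.4 CPM untreated (-0.42 ± 0.12, adjusted p = 0.011), and the groups did not overlap. The call was lost without both libraries of clone b (adjusted p = 0.10). Acat2, the thiolase at the head of the route, had 24.6 to 26.5 CPM with 4OHT and 21.1 to 29.3 CPM untreated (-0.03 ± 0.13), and reads shared with its near copy Acat3 may be split between them. Fdps, farnesyl diphosphate synthase, was low, at 4.68 ± 1.402 CPM with 4OHT and 3.68 ± 1.01 CPM untreated (0.33 ± 0.27, adjusted p = 0.32). Most of the Fdps span lies in Gm43738 on the same strand, so its level is uncertain.

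From squalene to cholesterol, most enzymes rose and a few of low level had lower values. Fdft1, squalene synthase at the entry to the sterol branch, had 108, 93.5 and 109 CPM with 4OHT against 79.7, 74.1 and 86.0 CPM untreated (0.38 ± 0.08, adjusted p = 0.0032). Sqle, squalene epoxidase and a well-known SREBP2 target that limits flux, had 59.2, 47.8 and 42.7 CPM with 4OHT and 54.0, 45.3 and 48.5 CPM untreated (0.02 ± 0.12, adjusted p = 0.88), with the sign turned by library size (-0.18) and by upper quartile scaling (-0.08). The Sqle groups overlapped. Lss, lanosterol synthase, rose by 0.35 ± 0.11 (adjusted p = 0.021), with 66.2, 49.2 and 56.6 CPM with 4OHT against 49.5, 41.8 and 43.9 CPM untreated. Its groups overlapped narrowly, and the antisense gene 4930483K19Rik overlaps 11268 bases of its span.

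The lanosterol-modifying steps held the other large rises. Cyp51, which demethylates lanosterol, had 83.3, 68.5 and 68.7 CPM with 4OHT against 43.7, 43.0 and 45.2 CPM untreated (0.74 ± 0.09, adjusted p = 5.4e-05). Msmo1, the C4 methyl oxidase, had 93.5, 92.8 and 119 CPM with 4OHT against 47.9, 53.4 and 70.2 CPM untreated (0.83 ± 0.14). Sc5d (chromosome 9, 42251595 to 42264256), the C5 desaturase, had 39.2, 42.1 and 47.6 CPM with 4OHT against 22.0, 20.8 and 21.6 CPM untreated (1.00 ± 0.10, adjusted p = 1.3e-05). No 4OHT library of these 3 genes reached down to an untreated one.

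Smaller rises passed the test in Hsd17b7, a C3 ketoreductase (0.40 ± 0.10), Nsdhl, a C4 decarboxylase (0.32 ± 0.12, adjusted p = 0.038), and Dhcr7, which makes cholesterol from its last precursor in 1 branch (0.31 ± 0.11, adjusted p = 0.030). All 3, with Fdft1 and Lss, lost the call by library size. By upper quartile scaling Nsdhl (adjusted p = 0.13), Dhcr7 (adjusted p = 0.12) and Lss (adjusted p = 0.078) lost it too. Hsd17b7 also lost its call without both libraries of clone a or of clone b. Nsdhl was not called by DESeq2 (adjusted p = 0.066) or when any of 4 libraries, all 3 untreated and the 4OHT library of clone a, was left out (adjusted p up to 0.18, with a log2 fold change of 0.20 without 4OHT a). Dhcr7 lost its call without untreated clone a or b or 4OHT clone a or c (adjusted p up to 0.12), and Lss without untreated clone b or c or 4OHT clone a (adjusted p up to 0.095, with a log2 fold change of 0.23 without 4OHT a). Tm7sf2, a C14 reductase, had 4.34, 5.44 and 6.43 CPM with 4OHT against 7.05, 7.06 and 7.45 CPM untreated (-0.42 ± 0.17, adjusted p = 0.061, or 0.033 with clone as a block). Its groups did not overlap, and it was called without the 4OHT library of clone c (-0.55, adjusted p = 0.028), by upper quartile scaling and by library size. Ebp, the sterol isomerase, had 5.94, 4.33 and 2.92 CPM with 4OHT against 5.85, 6.15 and 7.74 CPM untreated (-0.54 ± 0.24, adjusted p = 0.074, or 0.036 with clone as a block). Clone a showed no drop in Ebp (0.02) and clone c a large one (-1.35), and without the 4OHT library of clone a it was called (-0.83, adjusted p = 0.021). Ebp was also called lower by upper quartile scaling (-0.65, adjusted p = 0.040) and by library size (-0.74, adjusted p = 0.018).

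Of the 8 fatty acid enzymes, Acly, Acaca and Scd2 rose, Elovl6, Fads1, Fads2 and Scd1 fell, and Fasn did not pass the test. Acly, ATP citrate lyase, which supplies cytosolic acetyl-CoA to both routes, had 273, 274 and 299 CPM with 4OHT against 190.3, 193 and 189 CPM untreated (0.56 ± 0.06, adjusted p = 3.3e-05). Acaca, acetyl-CoA carboxylase, had 133, 122 and 147 CPM with 4OHT against 106, 103 and 115 CPM untreated (0.31 ± 0.08), and lost the call by library size (0.12, adjusted p = 0.24). Gm11437 on the other strand overlaps 19126 bases of Acaca. Fasn, fatty acid synthase, had 128, 125 and 165 CPM with 4OHT and 149, 145 and 183 CPM untreated. Every clone was lower for Fasn, by 0.15 to 0.22 on the log2 scale, but the difference did not pass the test (-0.19 ± 0.12, adjusted p = 0.19). A clone block made it pass (adjusted p = 0.00084), as did leaving out the 4OHT c library (-0.32, adjusted p = 0.020) and library size scaling (-0.39, adjusted p = 0.015).

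Elovl6 (chromosome 3, 129532355 to 129638495), the elongase that acts on the product of fatty acid synthase, had 286, 272 and 205 CPM with 4OHT against 455, 426 and 356 CPM untreated (-0.70 ± 0.13, adjusted p = 0.00094). All 4OHT libraries were below all untreated ones, and clone c was lowest in both groups. Fads1 (chromosome 19, 10182888 to 10196877), the delta-5 desaturase of polyunsaturated fatty acids, had 21.2, 18.1 and 21.5 CPM with 4OHT against 38.3, 30.7 and 37.1 CPM untreated (-0.80 ± 0.12, adjusted p = 0.00022). Fads2 (chromosome 19, 10062765 to 10101746), the delta-6 desaturase of the same pathway, had 41.3, 37.6 and 35.8 CPM with 4OHT against 68.9, 62.2 and 63.6 CPM untreated (-0.76 ± 0.08, adjusted p = 2.6e-05). The 2 desaturases kept a steady ratio, with 1.67 to 2.08 Fads2 counts per Fads1 count with 4OHT and 1.71 to 2.02 untreated.

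The stearoyl-CoA desaturases, which make monounsaturated fatty acids, went opposite ways. Scd2 had 294, 267 and 279 CPM with 4OHT against 213, 209 and 247 CPM untreated (0.33 ± 0.08, adjusted p = 0.0047). Scd1 had 28.6, 18.6 and 19.0 CPM with 4OHT against 33.1, 26.6 and 31.5 CPM untreated (-0.45 ± 0.16, adjusted p = 0.036), its clone a library with 4OHT lying above the lowest untreated one. Scd2 gave 10.3, 14.4 and 14.7 counts per Scd1 count with 4OHT in clones a, b and c, and 6.45, 7.86 and 7.86 untreated. The Scd1 call was lost without untreated clone a or c or 4OHT clone b or c (adjusted p up to 0.15), and its value was -0.69 without 4OHT clone a. The 2 genes are close paralogs, and how reads shared between them were counted is not given.

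**Figure D3:**
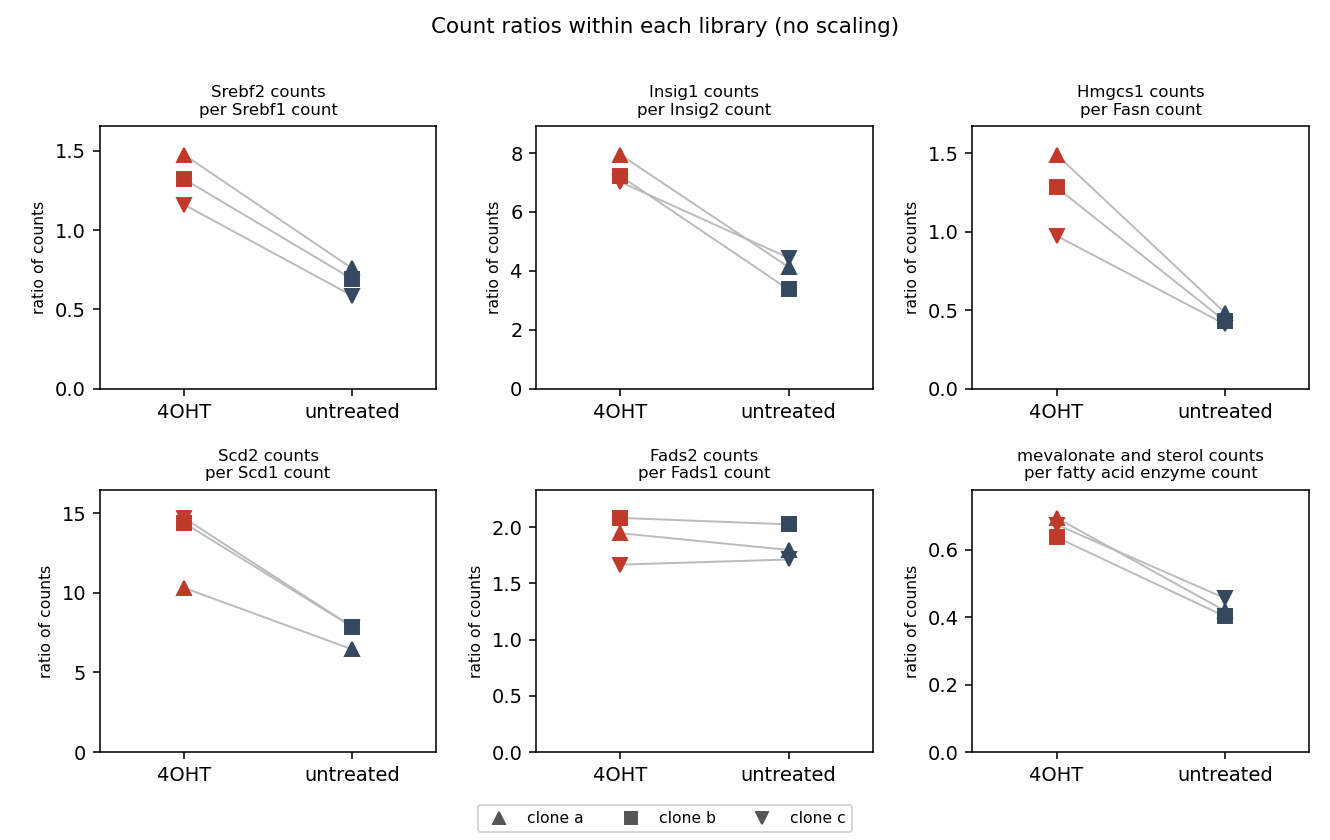
Ratios of raw counts within each library (y axis, from 0), 4OHT left and untreated right, with a line joining the libraries of each clone. The ratios that set a sterol gene or arm over a fatty acid one, Srebf2 over Srebf1, Insig1 over Insig2 and Scd2 over Scd1 are higher with 4OHT in every clone, and Fads2 over Fads1 stays between 1.67 and 2.08.

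Set against each other within a library, where no scaling enters, sterol enzymes took more counts for each fatty acid enzyme count with 4OHT in every clone. The fatty acid sum itself was 1134 to 1205 CPM with 4OHT and 1195 to 1253 CPM untreated, and the sterol sum 723 to 838 CPM with 4OHT and 482 to 559 CPM untreated. Elovl6 alone made up 205 to 286 CPM of the fatty acid sum with 4OHT and 356 to 455 CPM untreated. On this TMM scale its drop was larger than that of the sum in every clone, so the other fatty acid enzymes together were higher with 4OHT. That rise depends on TMM scaling and was not seen by library size. Among those enzymes Acly, Acaca and Scd2 rose, while Fads1, Fads2 and Scd1 fell and Fasn was not called. There were 0.695, 0.638 and 0.675 counts of mevalonate and sterol enzymes per count of fatty acid enzymes with 4OHT in clones a, b and c, against 0.419, 0.403 and 0.457 untreated. For Hmgcs1 over Fasn the ratios were 1.49, 1.28 and 0.974 with 4OHT and 0.485, 0.432 and 0.412 untreated. The groups do not overlap in either ratio, but the genes were chosen with results known, and 3 against 3 libraries cannot give an exact permutation p below 0.1, so no test is given.

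**Figure D4:**
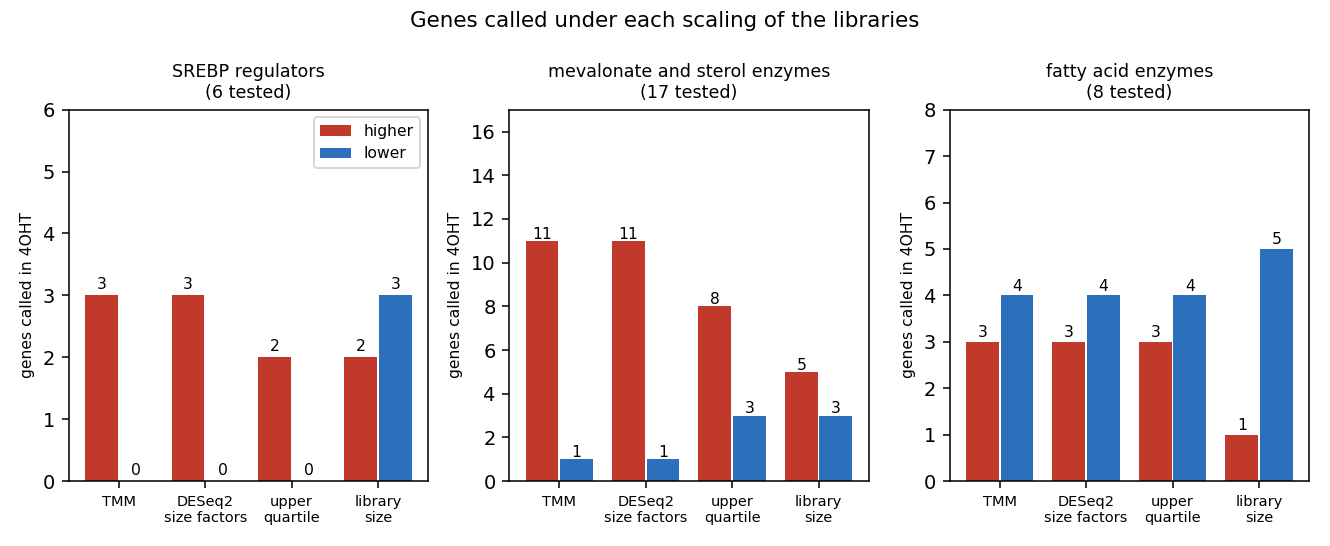
Number of genes called higher or lower with 4OHT (y axis) in each arm under 4 ways of scaling the libraries. Sterol enzymes have more genes higher than lower under all 4 (11 and 1 with TMM, 5 and 3 by library size), fatty acid enzymes have more lower than higher under all 4, and the regulators have 3 and 0 with TMM but 2 and 3 by library size.

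The clones differed in some of these genes whatever the treatment. With clone and treatment in 1 fit, 10 of 31 members differed between clones, against 12.6% of all tested genes. They were Srebf1, Stard4, Idi1, Sqle, Lss, Msmo1, Acaca, Fasn, Elovl6 and Scd1. Clone c had less Elovl6 than clone a by 0.41 on the log2 scale (clone adjusted p = 0.00011), and more Msmo1 (0.44), Fasn (0.33) and Srebf1 (0.30). Sqle was lower in b and c than in a (-0.28 and -0.29). For Fasn and Srebf1 the clone differences were larger than the difference between treatments.

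Of 15 tested SREBP processing and sterol-sensing genes, 7 rose and 2 fell (median 0.17), against 1 and 3 by library size and 10 and 3 with clone as a block. With TMM scaling 46.7% rose and 13.3% fell, where 28.5% and 28.6% of all tested genes did. In either direction 60% were called, near the 57.1% of all tested genes. With clone as a block 67.4% of all tested genes were called. Tmem41b (0.38) and the oxysterol receptor gene Nr1h2 (0.30) were higher. Erlin1, which binds SCAP and INSIG (-0.52 ± 0.09), and the site-2 protease gene Mbtps2 (-0.21 ± 0.07) fell.

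Of 14 other sterol and isoprenoid genes tested, 6 rose and 3 fell (median 0.16), against 2 and 4 by library size. With TMM scaling 42.9% rose and 21.4% fell, where 28.5% and 28.6% of all tested genes did. In either direction 64.3% were called, near the 57.1% of all tested genes. Pdss2 (0.70 ± 0.10) and Pdss1 (0.27 ± 0.06), which make the side chain of coenzyme Q, were higher, while Coq2, which attaches that chain, was lower (-0.78 ± 0.07). The dolichol synthesis gene Dhdds (-0.22) fell too.

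In the list for cholesterol uptake, transport and storage the balance was the other way, with 3 of 19 higher and 7 lower (median -0.14), or 2 and 10 by library size and 6 and 9 with clone as a block. With TMM scaling 15.8% rose and 36.8% fell, where 28.5% and 28.6% of all tested genes did. In either direction 52.6% were called, near the 57.1% of all tested genes. With clone as a block 67.4% of all tested genes were called. Abcg1, a cholesterol exporter, averaged 7.82 CPM with 4OHT and 56.5 CPM untreated (-2.83 ± 0.17). Gramd1b (-0.91), which moves sterol from the plasma membrane to the endoplasmic reticulum, and the cholesteryl ester hydrolase gene Nceh1 (-1.35) also fell. The lipoprotein receptor genes Lrp8 (1.06 ± 0.17) and Vldlr (1.01 ± 0.34) rose. For Vldlr the groups overlapped (adjusted p = 0.026), and clone c minus clone a was -1.15 on the log2 scale (clone adjusted p = 0.00072).

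Of 32 tested genes in the wider list for fatty acid and lipid synthesis, 9 rose and 13 fell (median -0.19), or 5 and 16 by library size. With TMM scaling 28.1% of the list rose, close to the 28.5% of all tested genes. The share that fell was 40.6%, against 28.6% of all tested genes. Me1, malic enzyme and a source of NADPH for lipid synthesis, averaged 340.0 CPM with 4OHT and 59.9 CPM untreated (2.51 ± 0.08). Acsl4, an acyl-CoA synthetase that prefers polyunsaturated fatty acids (1.26 ± 0.09), and Hsd17b12, the ketoacyl reductase of chain elongation (0.97 ± 0.08), were higher. Acacb, the carboxylase whose malonyl-CoA holds back mitochondrial uptake of fatty acids, fell (-0.83 ± 0.10).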

How the data were processed

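STAR, featureCounts and mm10 are named in the submitters' processing notes. Their versions, the features counted and the strand setting were not given in the sources used here. Per the file header and values, the deposited table holds raw counts per gene symbol, which the authors did not normalise, with 1 column per library tied to its sample by time and clone letter. All 25899 rows name a gene, and 6497 had no count.

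Counts were tested over the whole table with edgeR 4.0.16 in R 4.3.3: filterByExpr (minimum count 10, minimum total 15), TMM, glmQLFit and glmQLFTest on 3 against 3 libraries, Benjamini-Hochberg adjustment. SE is the absolute log2 fold change over the square root of F. Values of single clones use log2 CPM with a prior count of 2. Chi-square per gene between libraries of 1 group was 2.26 to 11.5, above counting noise. The floor of 3 counts covers counting error only, while SD and SE also hold variation between libraries. No label says how the cultures were separated, and p-values therefore reflect only how these 6 libraries vary.

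Clone letters pair the libraries: same-clone deviations correlated at 0.282, 0.165 and 0.357 across genes. The clone block was an alternative, as were DESeq2 1.42.0, limma-voom (limma 3.58.1), other scalings and filters and left-out libraries. Positions are from GENCODE M21 (GRCm38, the assembly of mm10). The members and lists were chosen with earlier results of these data known. Named genes are all members and, of other lists, up to 4 with the smallest adjusted p plus those that go against their list's majority. A few genes named by that rule are not reported here.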

Additional observations from a re-analysis of the deposited data

How the results depend on the processing

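All 22 called members kept their direction under the 17 alternatives tried for each, and 11 of them (Srebf2, Insig1, Hmgcs1, Idi1, Cyp51, Msmo1, Sc5d, Acly, Elovl6, Fads1 and Fads2) were called under every one. Library size scaling gave 8 members higher and 11 lower, against 17 and 5, and the whole table moved with it by -0.20. With clone as a replicate block, 17 were higher and 8 lower, and it changed no call besides those of Fasn, Tm7sf2 and Ebp. At an adjusted p below 0.01, 13 were higher and 3 lower. Leaving out 1 library or 1 clone gave 10 to 17 higher and 3 to 6 lower, the extremes coming without clone a (10 higher) and without clone b (3 lower). The shares of all tested genes called at 0.01 or with libraries left out are not given here. These counts therefore have no background to be set against. Over all members and alternatives 49 values lost a call, 17 gained one and none reversed. Acat2, Sqle, Srebf1 and Scap changed sign in some alternatives without being called with the other sign. Members that differed between clones numbered 10, or 9 by library size. Where a call changed, the cause was not tested. Depth limits Fdps, Ebp and Tm7sf2, which had 20 to 93 counts per library.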

Other observations

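Fatty acid oxidation, which breaks down what the synthesis enzymes build, had 10 of 20 tested genes lower with 4OHT and 1 higher (median -0.34). With the same TMM scaling 28.6% of all tested genes were lower and 28.5% higher. By library size 15 of the list were lower and 1 higher. Cpt1a, the gate for long-chain fatty acids into mitochondria, averaged 13.1 CPM with 4OHT and 55.9 CPM untreated (-2.09 ± 0.14). The carnitine carrier gene Slc25a20 (-1.60 ± 0.16), the thiolase gene Acaa2 (-1.27 ± 0.13) and the dehydrogenase gene Hadh (-1.15 ± 0.10) fell as well. Acadvl, for very long chains, rose (0.59 ± 0.12).

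Levels can be compared between members only per length. Per kilobase of merged exons, the untreated levels were highest for Elovl6 (64.1 CPM per kb), Srebf1 (42.1), Scd2 (40.9) and Acly (36.1), and lowest among tested members for Fdps (0.873) and Tm7sf2 (1.63). Per kilobase of gene span the order changed, with Scd2 (16.9), Srebf1 (10.1) and Insig1 (9.72) on top and Elovl6 at 3.89. Which length applies depends on the features that were counted, which are not given.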
